A study of Homo sapiens with 4 samples.

Results

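The 10 genes described here encode parts of autophagy, the process in which a cell wraps its own contents in a membrane and delivers them to the lysosome. They were chosen by name, and all 10 were found among the 32479 genes of the deposited table. They were followed in 4 libraries of 2 human liver cancer cell lines. HepG2 is a hepatoblastoma-derived line and PLC/PRF/5 is a hepatoma line with hepatitis B virus DNA integrated in its genome. The groups were HepG2 with 20 uM PF429242 for 24 h, HepG2 untreated at 24 h, PLC/PRF/5 with 20 uM PF429242 for 24 h and PLC/PRF/5 untreated at 24 h, with 1 library each. The labels give the genotype of every group as WT and the same growth medium for both lines. They do not say whether untreated cells received the solvent of the compound. PF-429242 (PF429242 in the labels) is an inhibitor of MBTPS1, the site-1 protease of the Golgi, which cuts the sterol regulatory element-binding proteins and ATF6 on their way to the nucleus. Because no group had a replicate, no difference within a line carries a p-value.

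Autophagy begins with the ULK1 kinase complex, which activates a lipid kinase complex built around BECN1 and ATG14. The lipid this complex makes recruits WIPI proteins to the growing membrane, and the ATG5 conjugation machinery then attaches ATG8-family proteins such as LC3B (MAP1LC3B) and GABARAPL1 to it. Receptors such as p62 (SQSTM1) and BNIP3 tether cargo to these proteins, and the transcription factor TFEB switches on many genes of autophagy and of the lysosome. In hepatocytes the pathway supplies amino acids in fasting and consumes lipid droplets, protein aggregates and damaged mitochondria.

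The libraries held 20350701 fragments (HepG2, PF-429242), 16722204 (HepG2, control), 16982560 (PLC/PRF/5, PF-429242) and 21387301 (PLC/PRF/5, control). All 8 hepatocyte markers, which include ALB and APOB, reached 1 FPKM (fragments scaled by gene length and library depth), with sums of 8062 and 9334 FPKM in treated and control HepG2 and 2976 and 2244 FPKM in treated and control PLC/PRF/5. None of the 4 fibroblast markers in the table reached 1 FPKM, and the endothelial markers summed to 0.869 to 1.37 FPKM per library. Of the blood markers LYZ was at 179 to 504 FPKM, while CD68 was at most 0.0544 FPKM. MBTPS1 itself was at 13.4 FPKM in treated and 13.0 FPKM in control HepG2, and at 9.38 FPKM in treated and 9.70 FPKM in control PLC/PRF/5. Mitochondrial genes took 27.6% of fragments in treated and 16.6% in control HepG2, and 28.2% in treated and 21.3% in control PLC/PRF/5. The treated PLC/PRF/5 library stood apart in 2 respects, with 0.447% of fragments on mitochondrial ribosomal RNA against 3.26% in its control, and 871 against 10160 fragments on the 9 genes whose symbols begin with RRP. The median log2 ratio of (FPKM + 1), PF-429242 over control, over all genes that reached 1 FPKM in at least 1 library of a pair was -0.17 in HepG2 and -0.13 in PLC/PRF/5. In a bulk library, fewer cells of a kind and less RNA per cell cannot be told apart.

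The strongest contrast among the 10 genes lay between the lines and not between treated and untreated cells. SQSTM1 and GABARAPL1 were each more than 5-fold lower in untreated HepG2 than in untreated PLC/PRF/5. With PF-429242 no gene of the 10 passed 1.5-fold in either line on the log2(FPKM + 1) scale. Of all genes 7.87% passed in HepG2 and 9.32% in PLC/PRF/5, and of protein-coding genes 2.94% and 4.25%. The shared test over both lines called 0 of all 12838 genes tested, and so none of these. SQSTM1 and ULK1 stood higher in the treated library of both lines, BECN1 and ATG5 lower in both, and WIPI1 and TFEB lower in HepG2 and higher in PLC/PRF/5. For WIPI1 in PLC/PRF/5 the ratio, 1.11, had a 95% counting interval that held 1. BECN1 and ATG5 lay close to the median of all genes. After median-of-ratios scaling both were at -0.03 on the log2 scale in HepG2, and at -0.10 and -0.14 in PLC/PRF/5. On a scale that equalises the summed FPKM of the libraries (TPM scale), both lay from -0.53 to -0.48 in the 2 lines. There SQSTM1, MAP1LC3B, WIPI1 and ULK1 turned to below 0 in PLC/PRF/5. In HepG2 MAP1LC3B, GABARAPL1, ULK1, ATG14 and BNIP3 did so.

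Promoter sequences are shown for SQSTM1 and GABARAPL1, chosen after their values were seen, because these 2 genes differed most between the untreated lines. Each window runs from 250 bases before to 50 bases after a RefSeq start (GRCh38.p14), 5′ to 3′ on the gene's strand. The SQSTM1 window is the last of 3 listed starts and lies at chr5:179820655-179820954 (+), with 73.0% G or C. The GABARAPL1 window lies at chr12:10212627-10212926 (+), with 51.7% G or C. Capitals mark TGACGTCA, the cyclic AMP response element bound by bZIP factors, which starts at position -30 of the GABARAPL1 window. The windows are as follows.
SQSTM1: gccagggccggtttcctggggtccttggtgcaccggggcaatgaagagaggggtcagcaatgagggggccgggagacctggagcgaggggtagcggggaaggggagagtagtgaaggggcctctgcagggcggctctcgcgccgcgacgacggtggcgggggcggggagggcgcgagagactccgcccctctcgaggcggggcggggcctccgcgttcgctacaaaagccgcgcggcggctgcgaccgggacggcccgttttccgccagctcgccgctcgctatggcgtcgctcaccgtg
GABARAPL1: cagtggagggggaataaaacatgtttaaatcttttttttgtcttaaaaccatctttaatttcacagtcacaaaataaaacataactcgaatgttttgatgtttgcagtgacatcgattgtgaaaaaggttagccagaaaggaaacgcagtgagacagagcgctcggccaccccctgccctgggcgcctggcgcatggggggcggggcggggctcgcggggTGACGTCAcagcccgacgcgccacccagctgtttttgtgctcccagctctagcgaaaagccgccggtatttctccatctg

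The windows of all 10 genes, 15 in number, were searched on both strands for CACGTG, the E-box core of the TFEB motif, and for the longer palindromic TFEB motif (CLEAR), which contains it. The searches also covered TGTTTAC (FOXO factors), TTGCATCA (ATF4), the sterol regulatory element and TGACGTCA. TGACGTCA was added after the GABARAPL1 sequence had been read. CACGTG was found in ATG14, from position -21, and in BNIP3, from position -134, and in 7.26% of 35116 promoter windows of all genes. TGACGTCA was found in GABARAPL1 and in 1.85% of all windows. The other motifs, held by 0.353% (CLEAR), 3.42% (TGTTTAC), 0.866% (TTGCATCA) and 0.0456% (sterol regulatory element) of all windows, were in no window of the 10 genes, which says only that these letters are not there. The 60 bases around each E-box, in capitals, are shown because ATG14 and BNIP3 were the only genes of the 10 to hold one.
ATG14: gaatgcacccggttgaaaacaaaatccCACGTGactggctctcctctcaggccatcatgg
BNIP3: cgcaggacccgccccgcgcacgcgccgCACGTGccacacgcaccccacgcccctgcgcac

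**Figure D1:**
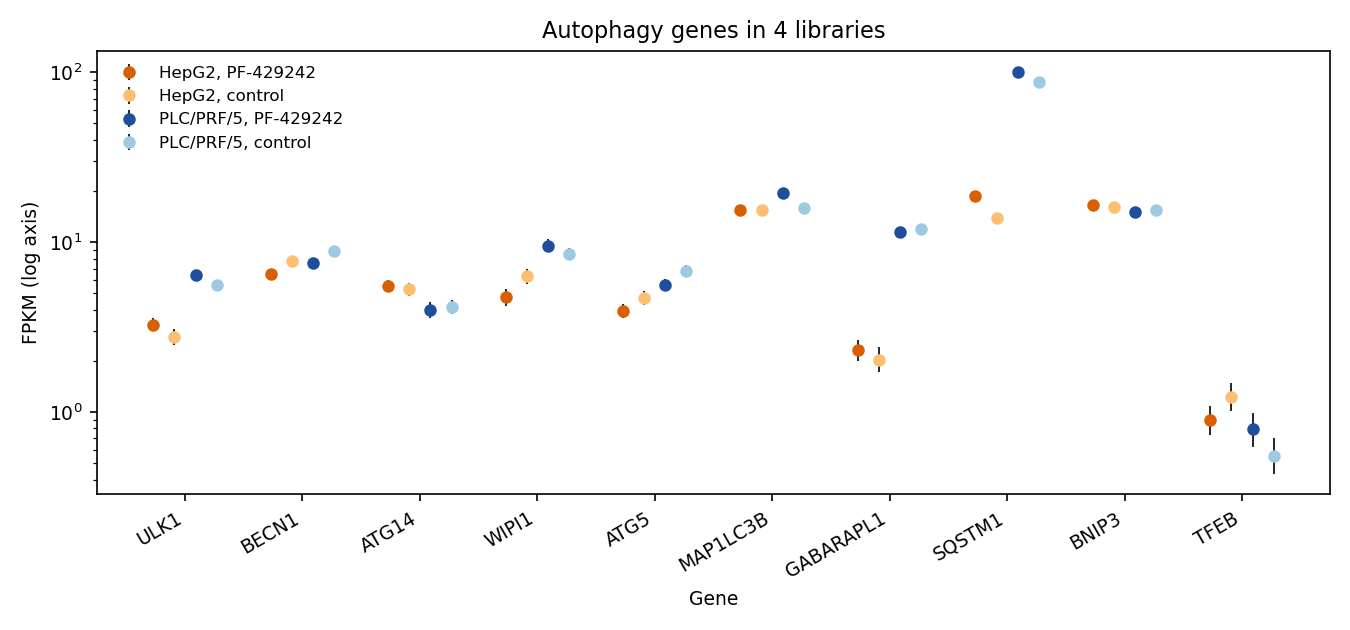
FPKM on a log axis of the 10 genes in each of the 4 libraries; points are single libraries and bars are 95% exact Poisson intervals, which cover counting error only. SQSTM1 lies near 100 FPKM in PLC/PRF/5 and below 20 FPKM in HepG2, GABARAPL1 is separated by line in the same way, and treated and control points of a gene lie close together.

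Among the initiation genes, ULK1 (chromosome 12, 131894651 to 131923167, GRCh38), the kinase that starts autophagosome formation, was at 3.27 FPKM in treated HepG2 and 2.76 FPKM in control HepG2. Treated PLC/PRF/5 had 6.39 FPKM and the PLC/PRF/5 control 5.63 FPKM. The ratio was 1.18 in HepG2 (95% counting interval 1.03 to 1.36) and 1.13 in PLC/PRF/5, so both intervals lay above 1 as deposited. On the TPM scale its log2 ratios were -0.07 in HepG2 and -0.13 in PLC/PRF/5. Intervals are exact Clopper-Pearson intervals of the fragments behind each pair, and they compare libraries and not conditions.

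BECN1 (chromosome 17, 42810134 to 42833350), the scaffold of the lipid kinase complex, was at 6.50 FPKM in treated and 7.73 FPKM in control HepG2, and at 7.53 FPKM in treated and 8.89 FPKM in control PLC/PRF/5. Its ratio was 0.842 in HepG2 (0.764 to 0.927) and 0.846 in PLC/PRF/5 (0.774 to 0.926). Both treated libraries were lower, and the ratios of the lines differed by -0.01 on the log2 scale (HepG2 minus PLC/PRF/5, counting interval -0.20 to 0.18). Relative to the median of all genes the log2 ratio was -0.04 in HepG2 and -0.08 in PLC/PRF/5. ATG14 (chromosome 14, 55366392 to 55411858), which directs this complex to autophagy, was at 5.51 FPKM in treated and 5.27 FPKM in control HepG2 and at 4.01 FPKM in treated and 4.16 FPKM in control PLC/PRF/5. Its ratios of 1.05 (0.923 to 1.19) and 0.963 (0.834 to 1.11) had intervals that held 1.

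WIPI1 (chromosome 17, 68420948 to 68457513), which reads the lipid made by the BECN1 complex, was at 4.74 FPKM in treated and 6.29 FPKM in control HepG2. Treated PLC/PRF/5 had 9.55 FPKM and its control 8.57 FPKM. The ratio was 0.753 in HepG2 (0.646 to 0.877) and 1.11 in PLC/PRF/5 with an interval that held 1, and the log2 ratio in PLC/PRF/5 was -0.16 on the TPM scale. ATG5 (chromosome 6, 106045423 to 106325791), part of the enzyme that conjugates ATG8 proteins, was at 3.94 FPKM in treated and 4.71 FPKM in control HepG2 and at 5.59 FPKM in treated and 6.81 FPKM in control PLC/PRF/5. Its ratios, 0.838 (0.734 to 0.958) and 0.821 (0.735 to 0.916), lay beside those of BECN1. Relative to the median of all genes its log2 ratio was -0.03 in HepG2 and -0.12 in PLC/PRF/5.

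MAP1LC3B (chromosome 16, 87383995 to 87404779), the ATG8 protein most used as a marker of autophagosomes, was at 15.4 FPKM in both treated and control HepG2. The values were 19.5 FPKM in treated and 15.9 FPKM in control PLC/PRF/5. The ratio was 1.00 in HepG2 (0.929 to 1.08) and 1.22 in PLC/PRF/5 (1.14 to 1.31), the highest of the 9 genes above 1 FPKM in that line. The difference of the log2 ratios was -0.29 (HepG2 minus PLC/PRF/5, -0.44 to -0.15). On the TPM scale the log2 ratios were -0.31 in HepG2 and -0.04 in PLC/PRF/5, so the direction in PLC/PRF/5 depended on the scaling.

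GABARAPL1 (chromosome 12, 10212458 to 10223130), an ATG8 protein of the GABARAP branch, was at 2.30 FPKM in treated and 2.04 FPKM in control HepG2 and at 11.5 FPKM in treated and 11.9 FPKM in control PLC/PRF/5. Its ratios were 1.13 (0.904 to 1.42) and 0.968 (0.881 to 1.06), both with intervals that held 1. Both HepG2 libraries lay far below both PLC/PRF/5 libraries.

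SQSTM1 (chromosome 5, 179806398 to 179838078) encodes p62, a receptor that carries ubiquitinated cargo to LC3 and is itself degraded by autophagy. It was at 18.7 FPKM in treated and 14.0 FPKM in control HepG2, and at 100.2 FPKM in treated and 88.3 FPKM in control PLC/PRF/5. The ratio was 1.34 in HepG2 (1.27 to 1.43) and 1.14 in PLC/PRF/5 (1.11 to 1.16). The log2 ratios differed by 0.24 (HepG2 minus PLC/PRF/5, 0.15 to 0.33). In HepG2 the log2 ratio of (FPKM + 1) was 0.40 as deposited and 0.60 after median-of-ratios scaling, which is past 1.5-fold, but 0.09 on the TPM scale. In PLC/PRF/5 it was 0.18 as deposited and -0.15 on the TPM scale.

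BNIP3 (chromosome 10, 131966455 to 131982013), a mitochondrial receptor for mitophagy that hypoxia induces, was at 16.6 FPKM in treated and 16.2 FPKM in control HepG2 and at 15.1 FPKM in treated and 15.5 FPKM in control PLC/PRF/5. The ratios were 1.03 (0.957 to 1.10) and 0.970 (0.904 to 1.04). Of the 10 genes it varied least over the libraries, from 15.1 to 16.6 FPKM. TFEB (chromosome 6, 41683978 to 41736259) was the lowest, at 0.896 FPKM (103 fragments) in treated and 1.23 FPKM (116 fragments) in control HepG2. Treated PLC/PRF/5 held 0.792 FPKM (76 fragments) and control PLC/PRF/5 0.555 FPKM (67 fragments). Its ratios of 0.730 (0.554 to 0.960) and 1.43 (1.01 to 2.01) pointed in opposite directions, with the widest intervals of the set.

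**Figure D2:**
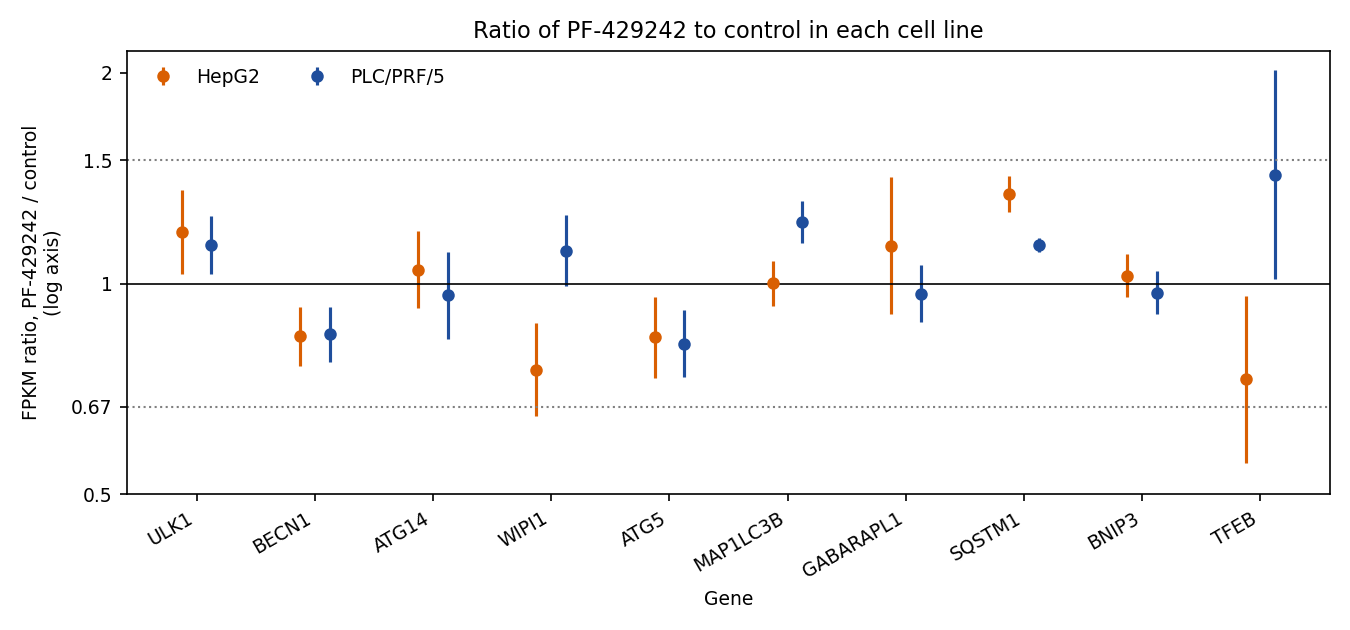
Ratio of FPKM, PF-429242 over control, on a log axis for the 10 genes in HepG2 and PLC/PRF/5; bars are 95% exact counting intervals and dotted lines mark 1.5-fold. Every point lies between the dotted lines, with SQSTM1 highest in HepG2 at 1.34 and TFEB highest in PLC/PRF/5 at 1.43.

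In HepG2, 0 of the 10 genes passed 1.5-fold, where 7.87% of all 12347 genes and 2.94% of 9992 protein-coding genes did. In PLC/PRF/5 the count was 0 of the 9 genes that reached 1 FPKM (TFEB did not), where 9.32% of 13144 genes and 4.25% of 10611 protein-coding genes passed. At these shares a count of 0 is near the background. At a lower threshold, a log2 ratio of 0.32, SQSTM1 (higher) and WIPI1 (lower) passed in HepG2, where 26.0% of all genes did, and 0 passed in PLC/PRF/5, where 28.5% did. The median log2 ratio of the 10 genes was 0.02 in HepG2, against -0.17 over all genes. In PLC/PRF/5 it was 0.05, against -0.13 over all genes. That 0.05 includes TFEB, which the all-gene median leaves out as below 1 FPKM. The middle value of the other 9 genes was that of BNIP3, -0.04. The ratio itself lay above 1 with its interval for 2 genes and below 1 for 4 in HepG2. In PLC/PRF/5 it lay above 1 for 4, TFEB among them, and below 1 for 2. Of all genes the interval lay above 1 for 3.55% and below 1 for 50.4% in HepG2, and above 1 for 10.4% and below 1 for 41.4% in PLC/PRF/5.

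The shared test fitted both lines together with limma on log2(FPKM + 1). Cell line was a blocking term and the 2 lines served as replicates, so that 1 residual degree of freedom was left. It called 0 of 12838 genes at an adjusted p under 0.05 (0.00% called), and so 0 of the 9 autophagy genes tested, while 2488 genes, SQSTM1 among them, had an unadjusted p under 0.05. TFEB reached 1 FPKM in too few libraries to be tested. SQSTM1 had a shared log2 ratio of 0.29 ± 0.09 (SE) with a limma adjusted p of 0.219, and was higher in both lines. BECN1 had -0.22 ± 0.08 (adjusted p = 0.267) and ATG5 -0.23 ± 0.09 (adjusted p = 0.280), both lower in both lines. Voom weights on the recovered fragments likewise called 0, with 3 of the 9 genes at an unadjusted p under 0.05. The share of all genes at that mark was not computed with voom, so those 3 have no background beside them. In the main fit that share was 19.4%. The TPM scale called 3 of the 9 as lower, BECN1 (adjusted p = 0.0222), ATG5 (0.0241) and BNIP3 (0.0353), on a scale where 47.2% of all 12760 genes were called. On simulated data the fit also called genes that had not been changed.

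The untreated lines were compared to give the levels from which each line started. SQSTM1 was at 14.0 FPKM in HepG2 and 88.3 FPKM in PLC/PRF/5, a ratio of 0.158 (0.150 to 0.166). GABARAPL1 was at 2.04 FPKM in HepG2 and 11.9 FPKM in PLC/PRF/5, a ratio of 0.171 (0.142 to 0.204), and ULK1 at 2.76 FPKM in HepG2 and 5.63 FPKM in PLC/PRF/5, a ratio of 0.490 (0.432 to 0.555). These 3 genes, all lower in HepG2, passed 1.5-fold on the log2(FPKM + 1) scale, where 43.5% of all 13861 genes passed in either direction and 23.7% were lower in HepG2. Against 39.8% of protein-coding genes, 3 in 10 is near the background. At a lower threshold, a log2 ratio of 0.32, 6 of the 10 passed, where 66.0% of all genes did. TFEB was the gene with the highest ratio, 2.21 (1.63 to 3.04), but its log2 ratio with a pseudocount of 1 was 0.52, short of 1.5-fold. It passed with a pseudocount of 0.1 (1.02), on the TPM scale (0.66) and after quantile normalization (0.59). ULK1 no longer passed with a pseudocount of 5 (-0.45).

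The remaining genes differed less between the untreated lines. The ratio of HepG2 to PLC/PRF/5 was 0.691 for ATG5 (0.614 to 0.776), 0.734 for WIPI1 (0.643 to 0.837), 0.869 for BECN1 (0.795 to 0.95) and 1.26 for ATG14 (1.11 to 1.45). For MAP1LC3B, at 0.970 (0.902 to 1.04), and BNIP3, at 1.04 (0.971 to 1.12), the interval held 1. The median log2 ratio of the 10 genes was -0.29, against -0.06 over all genes. Because the control libraries also stand under each treated ratio, the line ratio and the treated ratios of a gene are not independent.

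**Figure D3:**
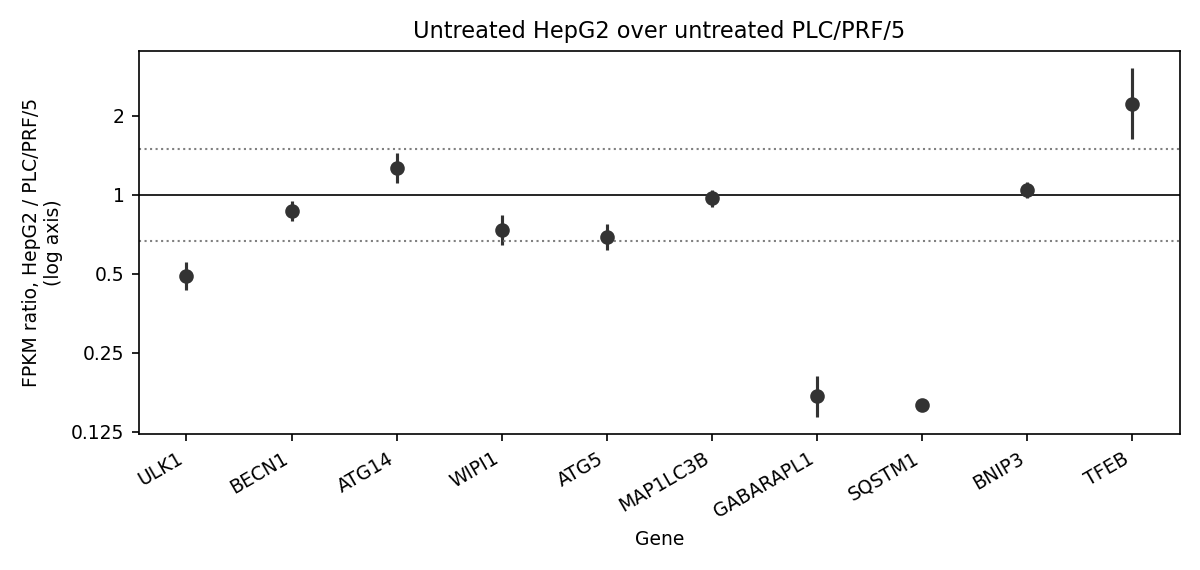
Ratio of FPKM, untreated HepG2 over untreated PLC/PRF/5, on a log axis; bars are 95% exact counting intervals and dotted lines mark 1.5-fold. SQSTM1 (0.158) and GABARAPL1 (0.171) lie far below the other 8 genes, and TFEB (2.21) lies highest.

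FPKM is scaled by gene length, so the genes can be ordered by level within a library. In treated HepG2 the order was led by SQSTM1, BNIP3 and MAP1LC3B, with SQSTM1 above BNIP3 beyond their intervals. In control HepG2 the same 3 genes led, BNIP3 first, and each interval overlapped that of the next gene. In both PLC/PRF/5 libraries SQSTM1 stood first by more than 5-fold, and GABARAPL1 held rank 4, where it held rank 9 in both HepG2 libraries. MAP1LC3B and BNIP3 had overlapping intervals in the PLC/PRF/5 control but not in treated PLC/PRF/5. TFEB was last in all 4 libraries.

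By the rule for likeness, the 3 genes with the largest absolute mean log2 ratio, SQSTM1, ATG5 and BECN1, were taken. They were compared with 4742 protein-coding genes that had at least 5 FPKM in every library. The measure was the Euclidean distance of log2(FPKM + 1) after centring over the 4 libraries. The nearest genes to SQSTM1 were TCIM (distance 0.40), the small heat shock protein gene HSPB1 (0.55) and the phosphatase gene DUSP1 (0.60). All 3 were high in both PLC/PRF/5 libraries, as SQSTM1 was. In PLC/PRF/5 all 3 were lower in the treated library (TCIM at 88.0 against 105 FPKM), where SQSTM1 was higher. In HepG2 TCIM and DUSP1 were higher in the treated library, as SQSTM1 was, and HSPB1 was lower. The nearest to ATG5 were ATRX, FAM208A and RBM8A (each 0.02), and the nearest to BECN1 were ARPC4 (0.01), CEP350 and CTGF (each 0.02). With 4 libraries, of which 2 are of each line, such distances are a description only.

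Neighbouring genes bear on some of these values, because it is not given whether the counting used strand. SQSTM1 shares 20.7% of its exon bases with MRNIP on the opposite strand, which was at 2.02 to 5.82 FPKM, and 1.37% with MGAT4B. WIPI1 shares 24.3% with ARSG on the opposite strand, which was at 0.610 to 0.862 FPKM. BECN1 shares 4.68% with PSME3 on the opposite strand, a gene at 42.2 to 49.8 FPKM, and 12.4% with CNTD1, at most 0.593 FPKM. MAP1LC3B shares 2.82% with FBXO31, and GABARAPL1 8.05% with an antisense gene. For BNIP3 the annotation names 39 pseudogenes after it, of which 19 were in the table with sums of 2.80 to 7.83 FPKM per library. The part of these genes in the results was not tested.

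A wider list of 91 autophagy and control genes beside the 10, ordered by step, was read in the same way, and 90 were in the table. Of the 76 that reached 1 FPKM in HepG2, 1 was higher and 1 lower by 1.5-fold or more on log2(FPKM + 1), where 7.87% of all genes and 2.94% of protein-coding genes passed. Of the 82 in PLC/PRF/5, 0 passed on that scale, where 9.32% of all genes and 4.25% of protein-coding genes did. On the ratio of FPKM itself, with no pseudocount, 3 passed in HepG2 (DDIT4, PIP4P1 and TMEM41B) and 3 in PLC/PRF/5 (SESN2, TMEM41B and ZKSCAN3). This measure was an alternative chosen after seeing the data, and the share of all genes past 1.5-fold on it was not computed. The shared limma fit tested 81 and called 0, with 0 called also by limma-voom. On the TPM scale 36 of the 81 were called lower, where 47.2% of all genes were called in either direction. As deposited, 8 of the 81 had an unadjusted p under 0.05, a mark that 19.4% of all genes reached. The median log2 ratio of the wider list was -0.11 in HepG2 and -0.01 in PLC/PRF/5, against -0.17 and -0.13 over all genes.

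For initiation and membrane growth, no gene passed 1.5-fold on log2(FPKM + 1). Of the ULK complex, the scaffold genes RB1CC1 (log2 ratio 0.05 in both lines) and ATG13 (0.01 in HepG2, 0.04 in PLC/PRF/5) lay near 0, and ATG101 was at -0.20 in HepG2 and 0.00 in PLC/PRF/5. In the lipid kinase complex, the regulatory subunit gene PIK3R4 was at -0.43 in HepG2 and -0.11 in PLC/PRF/5, NRBF2 at -0.12 and -0.10, and AMBRA1 at 0.09 and 0.19. TMEM41B, which encodes an ER lipid scramblase needed for autophagosome growth, was the nearest of these genes to the threshold in both lines, and its ratio of FPKM without a pseudocount was past it. It was at 9.05 FPKM in treated and 14.0 FPKM in control HepG2 (ratio 0.649, 0.590 to 0.713) and at 11.6 FPKM in treated and 17.8 FPKM in control PLC/PRF/5 (ratio 0.653, 0.600 to 0.710). Its shared log2 ratio of -0.57 ± 0.07 (SE) had a limma adjusted p of 0.193. Relative to the median of all genes its log2 ratio was -0.40 in HepG2 and -0.45 in PLC/PRF/5, short of 1.5-fold. VMP1, its partner at the ER, was at -0.28 in HepG2 and -0.25 in PLC/PRF/5, and the lipid transfer gene ATG2A at 0.06 and 0.19.

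Among the conjugation genes the protease gene ATG4A was at -0.23 in HepG2 and -0.33 in PLC/PRF/5, ATG10 at -0.18 and -0.22, and ATG16L1, the partner of ATG5, at -0.34 and -0.02. Of the 7 such genes measured in HepG2, 6 were below 0, as were 82.4% of all genes. The other ATG8 genes were at low levels, apart from GABARAPL2, at 9.42 FPKM in treated and 10.1 FPKM in control HepG2 and at 8.78 FPKM in treated and 8.68 FPKM in control PLC/PRF/5. GABARAP, named here after its values were seen, was at 0.655 FPKM (26 fragments) in treated and 0.582 FPKM (19 fragments) in control HepG2, and at 1.06 FPKM (35 fragments) in treated and 0.887 FPKM (37 fragments) in control PLC/PRF/5. It shares 30.5% of its exon bases with another gene on the same strand, and the part of that overlap in its low value was not tested.

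Among receptors, OPTN was at -0.14 in HepG2 and -0.36 in PLC/PRF/5, NBR1 at -0.03 and 0.19, and NCOA4, the ferritin receptor, at -0.02 and 0.41. NCOA4 was at 53.9 FPKM in treated and 40.2 FPKM in control PLC/PRF/5 (ratio 1.34, 1.28 to 1.40). The mitophagy genes FKBP8 (-0.22 in HepG2, -0.07 in PLC/PRF/5), FUNDC1 (-0.08, -0.15) and PHB2 (-0.08, -0.15) lay between -0.22 and -0.07. The ER-phagy receptors RTN3 (-0.26, -0.42), SEC62 (-0.31, -0.35) and TEX264 (-0.23, -0.31) were lower in the treated library of both lines under every scaling run. In HepG2 the log2 ratio of RTN3 was -0.06 after median-of-ratios scaling, that of SEC62 -0.10 and that of TEX264 -0.07. These are the 3 ER-phagy receptors that reached 1 FPKM in HepG2, and all 3 counting intervals there lay below 1 as deposited, against 50.4% of all genes. The list's median was -0.26 in HepG2 and -0.31 in PLC/PRF/5, where 4 of 5 intervals lay below 1, against 41.4% of all genes. The fourth of these was CCPG1, with a ratio of 0.862 (0.773 to 0.962) in PLC/PRF/5. In HepG2 CCPG1 lay below 1 FPKM and was higher with treatment, at 0.906 FPKM in treated and 0.748 FPKM in control cells. The fifth receptor, CALCOCO1, was at 2.27 FPKM in treated and 1.94 FPKM in control PLC/PRF/5, a ratio of 1.17 (1.01 to 1.36). CCPG1 and CALCOCO1 were named after their values were seen. None of these genes was called by the shared limma fit.

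The fusion genes VAMP8 (-0.24, -0.17), STX17 (-0.22, -0.13) and EPG5 (-0.26, -0.03) and the lysosomal genes ATP6V0D1 (-0.27, -0.10) and ATP6V1H (-0.15, -0.19) had log2 ratios between -0.27 and -0.03. PIP4P1, a lysosomal phosphatase gene, was at 4.75 FPKM in treated and 7.77 FPKM in control HepG2 (ratio 0.612, 0.533 to 0.702), past 1.5-fold as deposited. It was at 4.89 FPKM in treated and 6.50 FPKM in control PLC/PRF/5 (ratio 0.752, 0.652 to 0.866). Relative to the median of all genes its log2 ratio in HepG2 was -0.43, short of 1.5-fold. Of the transcription factors, the repressor gene ZKSCAN3 was at -0.09 in HepG2 and -0.45 in PLC/PRF/5, FOXO1 at 0.07 and 0.19, and TFE3, the relative of TFEB, at -0.08 and -0.11. TFE3 was at 8.47 FPKM in treated and 9.0 FPKM in control HepG2 and at 13.6 FPKM in treated and 14.7 FPKM in control PLC/PRF/5, above TFEB in every library.

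Of the genes upstream of ULK1, a pair that encodes inhibitors of mTORC1 had the largest mean log2 ratios over the lines. DDIT4 was at 13.0 FPKM in treated and 5.36 FPKM in control HepG2 (ratio 2.42, 2.05 to 2.88) and at 19.0 FPKM in treated and 15.2 FPKM in control PLC/PRF/5 (log2 ratio 0.30). SESN2 was at 8.80 FPKM in treated and 5.96 FPKM in control HepG2 (ratio 1.48, 1.29 to 1.69) and at 14.6 FPKM in treated and 9.48 FPKM in control PLC/PRF/5 (ratio 1.54, 1.39 to 1.71). Neither was called by the shared limma fit (adjusted p = 0.225 for DDIT4 and 0.193 for SESN2). SESN1, of the same family as SESN2 and named after its values were seen, did not rise with them. Its log2 ratio was -0.44 in HepG2 (ratio 0.706, 0.632 to 0.788) and 0.06 in PLC/PRF/5. SESN3 stayed below 1 FPKM in every library. The AMPK subunit gene PRKAA2 was at -0.16 in HepG2 and -0.31 in PLC/PRF/5 on the log2 scale. Between the untreated lines, 7 of 81 genes of the wider list were higher and 25 lower in HepG2 by 1.5-fold or more, where 19.8% and 23.7% of all genes were.

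**Figure D4:**
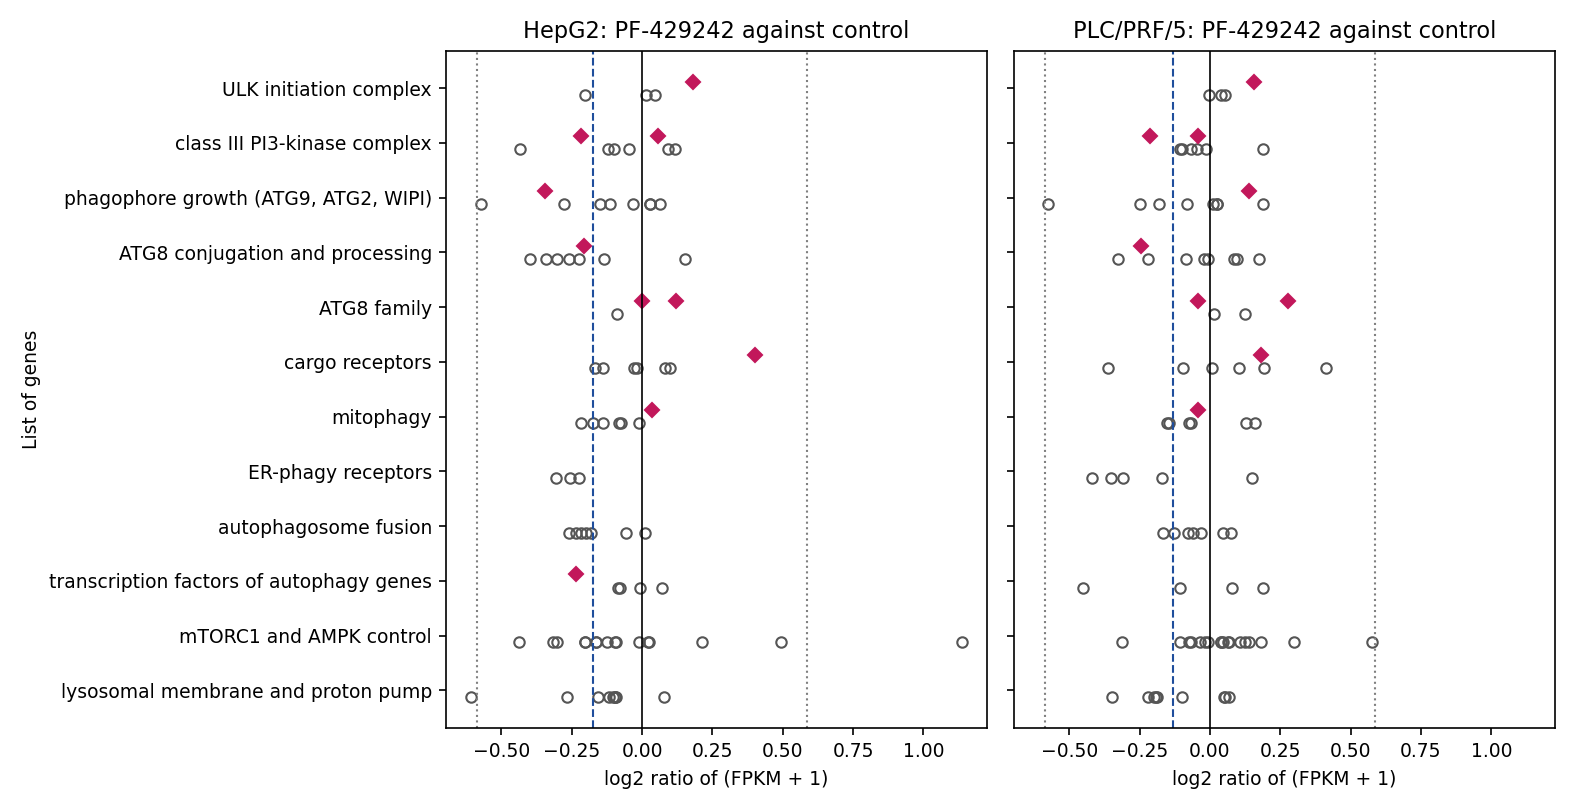
Log2 ratio of (FPKM + 1), PF-429242 over control, for genes that reached 1 FPKM in the line, by step of autophagy, in HepG2 (left) and PLC/PRF/5 (right). Filled diamonds are the 10 autophagy genes and open circles the wider list; the solid line is 0, the dashed line the median of all genes (-0.17 and -0.13) and dotted lines 1.5-fold, past which lie DDIT4 (1.14) and PIP4P1 (-0.61) in HepG2.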

How the data were processed

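RNA of 4 samples was sequenced, 1 library per group. The authors deposited FPKM values for 32479 Ensembl genes; the submitters' processing notes name TopHat2 and the build GRCh38. Which program counted and which annotation it used was not given in the sources used here. Symbols, positions and exon lengths are those of GENCODE 29 on GRCh38, which held 32354 of the identifiers, and promoters are from RefSeq (GRCh38.p14). With these lengths 24452 genes gave whole fragments within 0.001. For 7781 more, SQSTM1, MAP1LC3B, GABARAPL1, ULK1 and WIPI1 among them, another length did, and 246 were unsolved. At these depths 3 fragments on a gene of 1 kb correspond to 0.140 to 0.179 FPKM.

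Ratios carry 95% exact Clopper-Pearson intervals of the fragments and differences of log2 ratios between the lines carry Wald intervals. These ratios and differences were taken without a pseudocount. Both kinds of interval cover counting error only, because each group had 1 library. Without molecular identifiers PCR copies of a molecule are counted too, so the intervals can be too narrow even for that error. Genes that reached 1 FPKM in at least 1 library of a pair were counted at 1.5-fold on log2(FPKM + 1), a scale on which differences of low genes come out too small. The shared fit used limma 3.58.1 in R 4.3.3 with trend, for genes with at least 1 FPKM in 2 libraries, adjusted by Benjamini and Hochberg. It was tested on simulated data, where it recovered most changed genes and also called some unchanged ones. The recovery is not given for changes as small as the shared log2 ratio of SQSTM1, 0.29. The absence of calls therefore cannot show that the autophagy genes did not change.

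The genes, lists, comparisons and tests were chosen with earlier results of these data known. All 10 genes were named, with up to 3 further genes per list by the absolute size of their mean log2 ratio. Also named were the 3 nearest in pattern to each of the 3 genes with the largest absolute mean log2 ratio. Alternatives were pseudocounts, filters, thresholds, scalings and limma settings.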

Additional observations from a re-analysis of the deposited data

Results flagged for a closer look

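With 1 library per group, the difference between the lines in their response was not tested. For 5 of the 10 genes the log2 ratio of PF-429242 over control had opposite signs in the lines, as deposited. The share of all genes with opposite signs was not computed, so this count has no background beside it. The differences that follow are of log2 ratios of FPKM without a pseudocount. For TFEB the difference, HepG2 minus PLC/PRF/5, was -0.97 (95% counting interval -1.58 to -0.36), on 67 to 116 fragments per library. On log2(FPKM + 1) the ratios of TFEB lay closer together, at -0.23 in HepG2 and 0.21 in PLC/PRF/5. For WIPI1 it was -0.57 (-0.84 to -0.29), for GABARAPL1 0.23 (-0.12 to 0.57), for ATG14 0.12 (-0.15 to 0.39) and for BNIP3 0.0806 (-0.06 to 0.22). The intervals of the last 3 genes held 0, and their log2 ratios in PLC/PRF/5 had the sign of those in HepG2 under median-of-ratios scaling. For WIPI1 the interval of the PLC/PRF/5 ratio held 1, and its log2 ratio there was -0.16 on the TPM scale, the sign of HepG2. Among genes with the same sign in both lines, the interval lay apart from 0 for SQSTM1 (0.24, 0.15 to 0.33) and MAP1LC3B (-0.29, -0.44 to -0.15). It held 0 for ULK1, BECN1 and ATG5.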

How the results depend on the processing

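No paired analysis by replicate number was possible because the labels give none. The shared fit pairs treated and control libraries by cell line, and called 0 genes without that block too. With 1 library per group none could be left out. The all-gene median log2 ratio shifted with other scalings, by -0.28 (TPM scale), 0.18 (median-of-ratios and quantile) and 0.17 (totals over nuclear genes) in HepG2, and by -0.27, 0.11, 0.12 and 0.11 in the same order of methods in PLC/PRF/5. The median of the 10 genes, 0.02 in HepG2, was -0.30 on the TPM scale, 0.22 under median-of-ratios and quantile scaling and 0.21 with nuclear totals or with totals without mitochondrial and RRP genes, the last chosen after the data were seen. In PLC/PRF/5 it was 0.05, -0.23 on the TPM scale, 0.16 under median-of-ratios scaling, 0.17 under quantile scaling and with the added totals, and 0.18 with nuclear totals. These medians include TFEB, which lay below 1 FPKM in that line as deposited. Of the 10 genes, 0 passed 1.5-fold in HepG2 as deposited, 1 on the TPM scale (WIPI1, lower, -0.64), 1 under median-of-ratios scaling and under both other totals (SQSTM1, higher, 0.60) and 2 at a lower threshold (log2 ratio of 0.32). In PLC/PRF/5 the count was 0 under every alternative run. Between the untreated lines it was 3, and 6 at the lower threshold, 2 with a pseudocount of 5 (ULK1 lost) or at 2-fold, and 4 with a pseudocount of 0.1, on the TPM scale and under quantile scaling (TFEB gained). Of the wider list, 2 genes passed in HepG2, against 1 with a pseudocount of 5 or at 2-fold, 11 on the TPM scale and 8 at the lower threshold. The count stayed 2 under median-of-ratios, quantile and nuclear scaling, but the genes need not be the same. Relative to the median of all genes in HepG2, the log2 ratio was 1.31 for DDIT4 and 0.67 for SESN2. For PIP4P1 it was -0.43, short of 1.5-fold. In PLC/PRF/5 0 passed, against 3 with a pseudocount of 0.1 or with none, 8 on the TPM scale, 9 at the lower threshold and 1 under median-of-ratios, quantile, nuclear and the added totals. All-gene shares past 1.5-fold were not computed for the other pseudocounts and scalings. The shared fit called 0 of 9 genes, and 3 on the TPM scale, where 47.2% of all genes were called. Of the wider list it called 0 of 81 genes, and 36 on the TPM scale. The cause was not tested. Depth limits TFEB most, at 67 to 116 fragments.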
